A study of Mus musculus with 8 samples.

Results

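The RANK axis of bone resorption was followed through its 3 genes, Tnfsf11 (RANKL), Tnfrsf11a (RANK) and Tnfrsf11b (osteoprotegerin). They were taken by symbol, 1 row each, from a deposited table of 55421 genes. The RNA came from the tibiae and femurs of 8 wild-type male C57BL/6 mice, with the bone ends cut off and the marrow spun out. At 15 weeks of age, 4 mice received saline vehicle (labelled CTRL) and 4 were injected once into the peritoneum with doxorubicin at 10 mg/kg (labelled DoxoR), a DNA-damaging chemotherapy drug. On day 30 the hindlimb bones of each mouse gave 1 library of polyadenylated RNA, so replicates are separate animals. Its purpose was to model senescence after chemotherapy, and the series names the complement system, osteoclast precursors and bone loss in its title. The question put to the RANK axis was therefore whether ligand, receptor, decoy or their balance differed between the groups.

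RANKL is a membrane-bound or shed cytokine of the TNF family that osteocytes, osteoblast-lineage cells, marrow stromal cells, growth plate cartilage and activated lymphocytes make. It binds RANK on cells of the monocyte lineage and drives them to become osteoclasts, the cells that dissolve bone, and it keeps mature osteoclasts active. Osteoprotegerin is a secreted receptor with no membrane anchor that captures RANKL before it meets RANK. The ratio of RANKL to osteoprotegerin is therefore a common readout of the pressure toward resorption. It is measured here on RNA from whole bone, not on protein.

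The libraries held between 23699525 and 35747083 counts. Markers of the labelled tissue were present in each library. The summed level of 10 osteocyte markers ran from 484 to 1048 CPM (counts scaled to library size, with TMM factors) in vehicle and from 389 to 819 in doxorubicin bones. That of 10 osteoblast markers ran from 4476 to 7397 and from 3714 to 10532 CPM, and 0 of the 20 genes were without counts. Dmp1 alone made up 39.5% of the osteocyte sum, with a log2 difference (doxorubicin minus vehicle) of −1.03 ± 0.48 (SE). Of the 10 osteocyte genes 8 lay above 0, with a median of 0.22, beside 57.2% of all tested genes. RNA of other tissue was also present, with 10 erythroid markers at 13924 to 35173 CPM, 10 neutrophil markers at 10227 to 22889 and 10 skeletal muscle markers at 4267 to 34689 over the 8 libraries. Vehicle 3 had the lowest muscle level, and the next lowest library stood at 13341 CPM. In edgeR's quasi-likelihood test over 17035 genes, 0 genes (0%) passed an adjusted p of 0.05 and 913 (5.36%) had an unadjusted p under 0.05. Of these 913, 362 (2.13% of the genes tested) lay higher in doxorubicin and 551 (3.23%) lower. DESeq2 called 29 genes and limma-voom 0. A total of 612 genes (3.59%) had groups that did not overlap.

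Tnfsf11 (ENSMUSG00000022015.8) lies on the minus strand of chromosome 14 at 78277445 to 78308043 in GRCm38, with 5 exons and 1 annotated transcript. Tnfrsf11a (ENSMUSG00000026321.7) lies on the plus strand of chromosome 1 at 105780718 to 105847981, with 10 exons in its coding transcript. Tnfrsf11b (ENSMUSG00000063727.3) lies on the minus strand of chromosome 15 at 54250619 to 54278484, with 5 exons. The annotation places 0 other genes across any of the 3, so neighbouring transcripts share no reads with them by position.

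The 120 bases before the starts of the ligand and the receptor gene are shown to place each gene's start in its sequence. They come from RefSeq (GRCm38.p6), on the strand of the gene, for Tnfsf11 at chr14:78308044-78308163 and for Tnfrsf11a at chr1:105780603-105780722. Tnfrsf11b was not matched. Capitals mark the word TTATAA, close to the TATA box and the same when read on either strand. They also mark GGGCGG, the core of a GC box, searched on both strands.

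Tnfsf11: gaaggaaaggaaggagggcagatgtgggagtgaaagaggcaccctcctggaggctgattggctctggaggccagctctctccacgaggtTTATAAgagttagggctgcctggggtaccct

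Tnfrsf11a: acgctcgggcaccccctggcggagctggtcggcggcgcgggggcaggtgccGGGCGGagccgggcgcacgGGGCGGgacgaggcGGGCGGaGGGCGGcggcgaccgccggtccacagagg

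The RANKL window holds TTATAA once, 31 bases before the start, and the 250 bases before the start hold 0 GC boxes. The RANK gene has the reverse, with 4 GC boxes and 0 TTATAA in its 250 bases. Of the 32851 promoters in the table, 5.23% hold TTATAA, 32.7% hold a GC box and 4.09% hold at least 4 in the same length. These matches describe letters and show no binding.

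RANKL RNA differed more between mice than between groups. Tnfsf11 stood at 13.4, 9.33, 7.74 and 4.46 CPM in vehicle 1 to 4 and at 9.79, 8.53, 5.83 and 4.60 CPM in doxorubicin 1 to 4. Vehicle 1 was the highest of all libraries, vehicle 4 the lowest, and the 4 doxorubicin mice lay between them. In both groups the level fell in order of replicate number, and the labels do not say what that number marks. The vehicle mice averaged 8.73 ± 3.71 CPM and the doxorubicin mice 7.19 ± 2.39 (SD, n = 4 per group). The log2 difference, doxorubicin minus vehicle, was −0.28 ± 0.33 (SE), with a 95% interval from −1.02 to 0.46 and an adjusted p of 0.879 in edgeR's quasi-likelihood test. Without vehicle 1 it was 0.0061. In whole bone, the number of RANKL-making cells and the RANKL RNA in each cell cannot be told apart.

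Within groups the highest vehicle mouse had 3.00 times the Tnfsf11 of the lowest, and the highest doxorubicin mouse 2.13 times. The SD of its log2 CPM within groups was 0.58. Of the 500 tested genes nearest to it in mean level, 95.6% had a smaller SD, and their median was 0.24. Tnfsf11 was thus among the more variable genes of its level. Its library counts ran from 106 to 357.

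RANK RNA had a higher mean in the doxorubicin bones, by less than the test could call. Tnfrsf11a stood at 7.16, 6.67, 10.1 and 10.8 CPM in vehicle 1 to 4 and at 10.5, 11.4, 11.5 and 8.99 CPM in doxorubicin 1 to 4. Vehicle 1 and 2 lay below the other 6 libraries, while vehicle 3 and 4 lay inside the doxorubicin range. Vehicle mice averaged 8.68 ± 2.07 CPM and doxorubicin mice 10.6 ± 1.17 (SD, n = 4 per group). On the log2 scale the difference was 0.29 ± 0.18 (SE), with a 95% interval from −0.11 to 0.69 and an adjusted p of 0.856 in edgeR's quasi-likelihood test. Its sign was positive under each of the 17 alternative fits, between 0.17 without vehicle 2 and 0.38 with residual marrow as a covariate, and it passed the threshold in 0 of them. The within-group SD of its log2 CPM, 0.27, was close to the median of 0.24 for the 500 genes nearest in level.

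Osteoprotegerin RNA had the smallest group difference of the 3. Tnfrsf11b stood at 19.4, 17.5, 13.4 and 11.5 CPM in vehicle 1 to 4 and at 17.9, 15.3, 16.3 and 8.73 CPM in doxorubicin 1 to 4. Doxorubicin 4 was the lowest of all libraries and vehicle 1 the highest, so both groups spanned most of the range. The group averages were 15.5 ± 3.63 and 14.6 ± 4.04 CPM (SD, n = 4 per group), and the log2 difference was −0.08 ± 0.24 (SE), with a 95% interval from −0.61 to 0.44 and an adjusted p of 0.945 in edgeR's quasi-likelihood test. It was 0.04 without vehicle 1 and 0.10 without doxorubicin 4. None of the 3 genes had groups that did not overlap, and 0 of 3 passed the threshold in edgeR, DESeq2 or limma-voom.

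**Figure D1:**
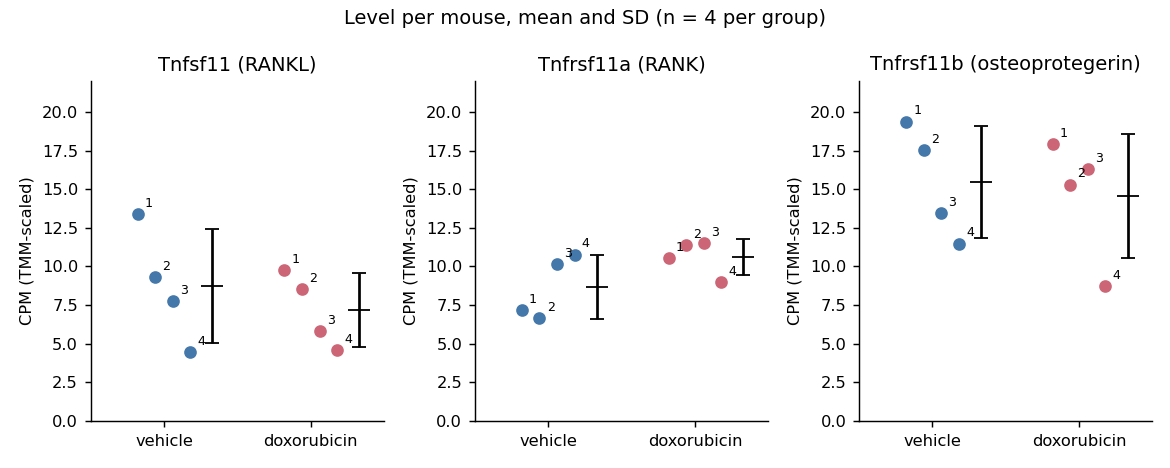
Level of Tnfsf11, Tnfrsf11a and Tnfrsf11b in CPM (y axis) for each mouse by group (x axis), with the replicate number beside each point and the mean and SD of the 4 mice as a bar. Groups overlap for each gene, and vehicle 1 and 2 hold the lowest RANK levels at 7.16 and 6.67 CPM.

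**Figure D2:**
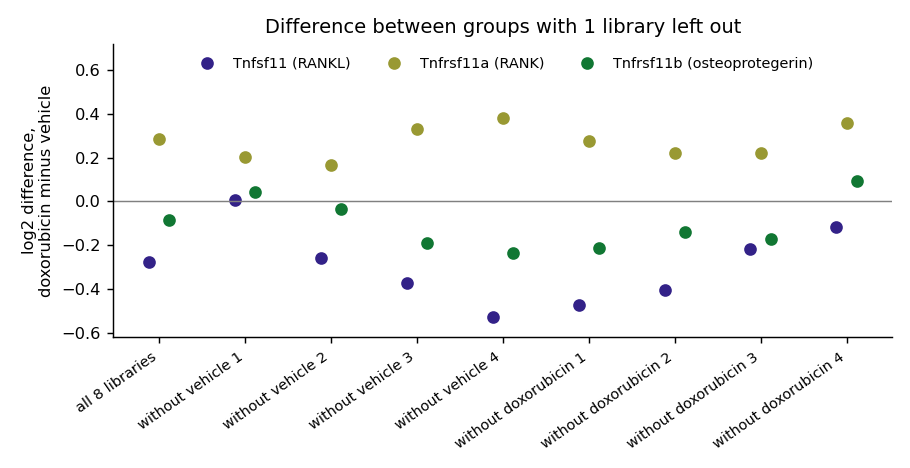
Log2 difference, doxorubicin minus vehicle, of the 3 genes (y axis) with all 8 libraries and with each library left out in turn (x axis). Tnfrsf11a stays above 0, between 0.17 and 0.38, while Tnfsf11 is at 0.0061 without vehicle 1 and Tnfrsf11b crosses 0 without vehicle 1 or doxorubicin 4.

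The ratio of RANKL to osteoprotegerin needs no scaling between libraries, since both counts come from the same one. It was 0.691, 0.532, 0.577 and 0.388 Tnfsf11 counts per Tnfrsf11b count in vehicle 1 to 4. In doxorubicin 1 to 4 it was 0.546, 0.558, 0.358 and 0.527. Vehicle 1 had the highest ratio and doxorubicin 3 the lowest, a span of 1.93 times, and each mouse had fewer RANKL than osteoprotegerin counts. The groups averaged 0.547 ± 0.125 and 0.497 ± 0.0940 (SD, n = 4 each). The difference of mean log2 ratios was −0.13, a 0.914-fold ratio, with p = 0.514 in a two-sided exact permutation test over 70 arrangements, whose smallest possible p is 0.0286. Shifts of the log2 ratio between −0.95 and 0.52, or 0.519-fold to 1.43-fold, had a p above 0.05 in the same test. The p of this test moves in coarse steps, so the range is not an exact 95% interval. Without doxorubicin 3 the difference was 0.02.

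Some of these mice differed by more than the binomial counting error. The exact binomial 95% interval of the ratio, which covers counting error only, ran from 0.602 to 0.792 in vehicle 1, from 0.315 to 0.476 in vehicle 4 and from 0.299 to 0.425 in doxorubicin 3. The intervals of vehicle 1 and vehicle 4, both given saline, do not meet. Those of doxorubicin 3 and doxorubicin 1, at 0.462 to 0.644, do not meet either. The intervals of vehicle 2 and vehicle 3 overlap, as do those of doxorubicin 1, 2 and 4. The reads were amplified by PCR, and the intervals do not cover error from that step.

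**Figure D3:**
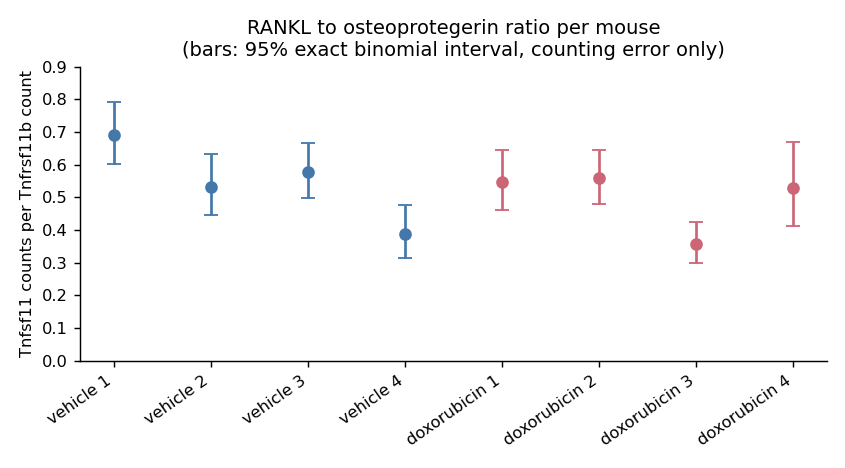
Tnfsf11 counts per Tnfrsf11b count (y axis) in each of the 8 libraries (x axis), with exact binomial 95% intervals that cover counting error only. Vehicle 4 at 0.388 and doxorubicin 3 at 0.358 lie below the other 6 libraries, which sit between 0.527 and 0.691.

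Levels of different genes were compared per kilobase of the coding transcript, which has 2236 bases for Tnfsf11, 5027 for Tnfrsf11a and 2818 for Tnfrsf11b. Osteoprotegerin was the most abundant per length, at 5.48 ± 1.29 CPM per kb in vehicle and 5.17 ± 1.43 in doxorubicin. RANKL followed at 3.90 ± 1.66 and 3.21 ± 1.07, and RANK at 1.73 ± 0.411 and 2.11 ± 0.232 CPM per kb (SD, n = 4 each). The decoy exceeded the ligand per length in 8 of 8 mice, with a ligand to decoy ratio between 0.451 and 0.870. The ligand exceeded the receptor in 7 of 8, with vehicle 4 the exception. Over the 4 mice of a group the ranges of neighbours in this order overlapped in both groups, so the order holds within mice rather than between group ranges. With all annotated exons of Tnfrsf11a counted, 5985 bases, the ligand exceeded the receptor per length in 8 of 8.

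RANKL and osteoprotegerin varied together from mouse to mouse. Over the 8 libraries the log2 CPM of Tnfsf11 and Tnfrsf11b had a Pearson r of 0.85 (exact permutation p = 0.00647, adjusted p = 0.0194 over the 3 pairs of genes). Spearman's rho was 0.90 (exact permutation p = 0.00456, adjusted p = 0.0137). After the group means were taken out, r was 0.84, so the relation was present within the groups. Without vehicle 4 and doxorubicin 4, the libraries farthest from the median of Tnfsf11, r was 0.63 (exact permutation p = 0.158), and the relation rests in part on those 2. The adjusted exact p was also above 0.05 without vehicle 1 (0.0661), vehicle 2 (0.0577), doxorubicin 1 (0.0619) or doxorubicin 4 (0.0589), with r between 0.81 and 0.93 over the libraries left out in turn. Both values of a mouse share its library and scaling. Tnfsf11 also fell in order of replicate number in both groups. Tnfrsf11b did so in vehicle mice, while among doxorubicin mice doxorubicin 3 stood above doxorubicin 2. The permutation test treats the libraries as exchangeable, and the part of replicate order in the relation was not tested.

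RANK gave no positive correlation with its ligand. The r of Tnfrsf11a was −0.49 with Tnfsf11 (rho −0.43, exact permutation p = 0.222 and 0.299, adjusted p = 0.332 and 0.449). With Tnfrsf11b it was −0.26 (rho −0.24, exact permutation p = 0.557 and 0.582, adjusted p = 0.557 and 0.582). Without the 2 libraries farthest from the median, r was −0.67 (exact permutation p = 0.156) and 0.77 (exact permutation p = 0.0736), so the sign of the second is set by vehicle 1 and vehicle 2.

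The members were then set beside the mean log2 CPM of the RANK target genes of the osteoclast and of 12 lists of cell markers, 39 relations in all, chosen after the data were seen. RANK went with the osteoclast genes. Its r with the mean of 16 genes that RANK signalling switches on was 0.94 (exact permutation p = 0.000174, adjusted p = 0.00677) and its rho 0.95 (exact permutation p = 0.00114, adjusted p = 0.0445). Vehicle 1 and 2 had the lowest levels of both, with list means of 5.02 and 4.59 log2 CPM against 5.25 to 5.53 in the other 6 libraries. Without these 2 mice r was 0.89 (exact permutation p = 0.0167), and with group means taken out it was 0.92. With each library left out in turn r lay between 0.93 and 0.98, and the adjusted exact p was 0.0542 without vehicle 1, vehicle 2 or doxorubicin 4 and at most 0.0310 otherwise. Markers of osteoclast precursors and monocytes, which also carry RANK, gave r = 0.44 (rho 0.45, exact permutation p = 0.269 and 0.267, adjusted p = 0.815 and 0.614), and 0.72 without doxorubicin 1 and doxorubicin 3 (exact permutation p = 0.110). With erythroid markers the r of RANK was 0.39 and with T and B lymphocyte markers 0.42 (exact permutation test, adjusted p = 0.815 for both). With group means taken out these were 0.81 and 0.72. In whole bone, the number of osteoclasts and the RANK signalling in each cell cannot be told apart.

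RANKL went with osteocyte markers, though not past the correction for 39 relations. Its r with the mean of 10 osteocyte genes was 0.84 (exact permutation p = 0.0127, adjusted p = 0.247) and its rho 0.76 (exact permutation p = 0.0368, adjusted p = 0.614). It was 0.95 without doxorubicin 1 and doxorubicin 2 (exact permutation p = 0.00694) and 0.88 with group means taken out. Vehicle 4, doxorubicin 3 and doxorubicin 4 had the lowest levels of both. Vehicle 1 had the highest RANKL, while its osteocyte mean of 4.84 log2 CPM lay below those of doxorubicin 1 (4.87) and doxorubicin 2 (4.94). Osteoprotegerin had r = 0.68 with the same markers (rho 0.62, exact permutation p = 0.0597 and 0.115, adjusted p = 0.777 and 0.614), and 0.73 without doxorubicin 1 and doxorubicin 2 (exact permutation p = 0.0847). With 10 osteoblast markers the r of RANKL was 0.35 (rho 0.33, exact permutation p = 0.394 and 0.428, adjusted p = 0.815 and 0.667), and 0.16 without doxorubicin 1 and doxorubicin 2. Apart from RANK with its targets, 0 of the 39 relations passed an adjusted p of 0.05.

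**Figure D4:**
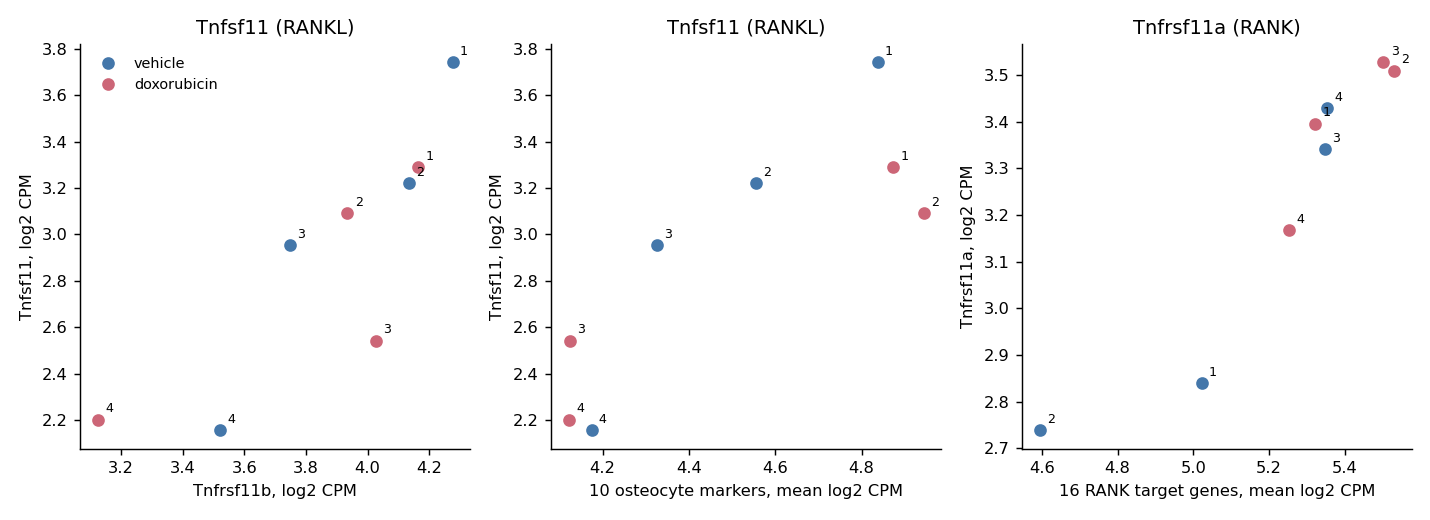
Log2 CPM per mouse of Tnfsf11 against Tnfrsf11b, of Tnfsf11 against the mean of 10 osteocyte markers, and of Tnfrsf11a against the mean of 16 RANK target genes, with replicate numbers beside the points and groups by colour. Pearson's r over the 8 libraries is 0.85, 0.84 and 0.94, and in the last panel vehicle 1 and 2 stand apart at the lower left.

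Of all the lists of cell markers set beside the members, 2 had summed levels that did not overlap between the groups. The sums of every other list overlapped. The 2 lists are named for that separation, and how often sums of such lists separate by chance was not tested. The 8 dendritic cell markers (dendritic cells can carry RANK) summed to 83.3 to 104 CPM in vehicle and 66.4 to 79.1 in doxorubicin bones. The 10 megakaryocyte markers summed to 1773 to 2314 and 1110 to 1603 CPM, and 0 genes of either list were without counts. The r of Tnfrsf11a was −0.46 with dendritic cell markers (rho −0.60, exact permutation p = 0.259 and 0.132, adjusted p = 0.815 and 0.614), and −0.21 without doxorubicin 1 and doxorubicin 3. Their part in the group difference of RANK was not tested. The T and B lymphocyte markers, another source of RANKL, summed to 161 to 254 and 133 to 244 CPM. Those of growth plate cartilage, also a source, summed to 58.6 to 193 CPM in vehicle (median 96.7) and 103 to 229 in doxorubicin bones (median 188). Their Comp, a cartilage matrix protein named after its values were seen, had groups that did not overlap and a log2 difference of 0.78 ± 0.27 (SE), with an adjusted p of 0.856 in edgeR's quasi-likelihood test. The r of RANKL with the mean of the cartilage markers was 0.00025 (rho 0.07, exact permutation p = 1.00 and 0.882, adjusted p = 1.00 and 0.930), and 0.64 without vehicle 2 and doxorubicin 3 (exact permutation p = 0.171).

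By likeness of pattern, the genes nearest to each member were taken among 14783 genes of at least 1 CPM, by Pearson's r of log2 CPM over the 8 libraries. For Tnfsf11 they were Tent5a, a poly(A) polymerase (0.99), Dusp11, an RNA phosphatase (0.98), Tbc1d8b (0.96), Skil, a repressor of SMAD signalling (0.96), and Gm26532 (0.96). Tent5a ran from 213 CPM in vehicle 1 to 92.0 in vehicle 4 and from 160 in doxorubicin 1 to 99.6 in doxorubicin 4, the same highest and lowest mice of each group as for RANKL. For Tnfrsf11a they were Fblim1, an adaptor of cell adhesion (0.96), Gm38375 (0.96), Kank4 (0.96) and Prr7 (0.96). For Tnfrsf11b they were Unc5c, a netrin receptor (0.95), Atf4, a transcription factor of the stress response and of osteoblasts (0.92), Siah2, a ubiquitin ligase (0.92), Dcaf10 (0.91) and Glt28d2 (0.90). An r of at least 0.9 was reached by 61 genes for Tnfsf11 (0.413%), 32 for Tnfrsf11a and 6 for Tnfrsf11b. Tnfrsf11b ranked 196 among the genes most like Tnfsf11, and Tnfsf11 ranked 35 among those most like Tnfrsf11b.

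The rest of the pathway was read from 8 lists by role, with the median log2 difference of all tested genes, 0.04, as the reference. On the ligand side, 4 of 9 partners and cofactors lay above 0 and 5 below, with a median of −0.02, and 0 of 9 passed the threshold. Csf1, the growth factor that osteoclast precursors need beside RANKL, was at 69.5 ± 25.4 and 50.7 ± 11.9 CPM (SD, n = 4 each), with vehicle 1 at 106. Its receptor Csf1r was at 71.9 ± 15.0 and 83.9 ± 13.7 CPM. Vwf, an endothelial protein that binds osteoprotegerin, was at 80.5 ± 19.5 and 59.8 ± 13.9 CPM, and the heparan sulfate carrier Sdc4 at 62.1 ± 30.8 and 38.8 ± 15.8 (SD, n = 4 each). Lgr4, a second receptor of RANKL that was named for its role outside the naming rule, was at 26.3 ± 4.73 and 25.9 ± 5.10 CPM.

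Of the 7 tested genes for the shedding and transport of RANKL, 5 lay above and 2 below 0, with a median of 0.08 and 0 past the threshold. Adam10, a membrane protease able to shed RANKL, stood at 184, 206, 235 and 175 CPM in vehicle 1 to 4 and at 141, 158, 174 and 141 CPM in doxorubicin 1 to 4. The groups did not overlap, with vehicle 4 and doxorubicin 3 the closest. Its log2 difference was −0.38 ± 0.13 (SE), with an unadjusted p of 0.0163 and an adjusted p of 0.856 in edgeR's quasi-likelihood test. Mmp14, another RANKL sheddase, was at 55.6 ± 13.5 and 68.0 ± 14.4 CPM, Vps33a at 26.0 ± 3.74 and 28.9 ± 2.26, and Adam19 at 27.6 ± 5.27 and 30.9 ± 4.09 (SD, n = 4 each). Mmp7 had too few counts to be tested.

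Among the inducers of RANKL and their receptors, 11 of the 21 tested lay above and 10 below 0, with a median of 0.0044 and 0 past the threshold. Il1a, the cytokine interleukin 1 alpha, stood at 8.43, 8.40, 12.4 and 8.0 CPM in vehicle 1 to 4 and at 4.09, 6.22, 6.78 and 6.51 CPM in doxorubicin 1 to 4, so the groups did not overlap. Its log2 difference was −0.66 ± 0.20 (SE), with an adjusted p of 0.825 in edgeR's quasi-likelihood test. Il6 was low throughout, at 0.857 ± 0.432 and 0.408 ± 0.125 CPM. Pth1r, the receptor through which parathyroid hormone raises RANKL, went the other way at 42.2 ± 9.98 and 61.4 ± 14.5 CPM, and Il11ra1 was at 21.0 ± 1.39 and 26.2 ± 5.20 (SD, n = 4 each). Il11 and Il17a had too few counts to be tested. Of 14 factors that act on RANKL or osteoprotegerin transcription, 9 lay above and 5 below 0, with a median of 0.02. The 4 with the smallest p were Hif1a at −0.26, Esr1 at 0.19, Creb1 at −0.24 and Cebpb at −0.54 ± 0.36 (SE) on the log2 scale. Without vehicle 1 Cebpb was at −0.15, and 0 of the 14 passed in the main fit.

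Downstream of the receptor, 12 of 17 adaptors and kinases lay above 0, with a median of 0.08 and 0 past the threshold. Ikbkg, the regulatory subunit of the kinase that frees NF-kappaB, stood at 29.6, 28.1, 31.1 and 29.9 CPM in vehicle 1 to 4 and at 32.4, 31.5, 33.9 and 36.8 CPM in doxorubicin 1 to 4. The groups did not overlap, and the log2 difference was 0.18 ± 0.10 (SE), with an unadjusted p of 0.0866 and an adjusted p of 0.856 in edgeR's quasi-likelihood test. Tab1 had a log2 difference of 0.32, Gab2 of 0.22 and Traf5 of −0.20. Traf6, the main adaptor of RANK and named for that role, was at 30.4 ± 1.60 and 32.3 ± 0.633 CPM in the 2 groups. Of the 13 transcription factors 7 lay above 0, with a median of 0.0014, and 0 passed. Nfatc1, the master regulator of osteoclast formation, had a log2 difference of 0.26 ± 0.18 (SE), Relb of 0.24, Spi1 of 0.24 and Fos of −0.67 ± 0.59 (SE). Without vehicle 1 the log2 difference of Fos was −0.07. The 10 brakes on RANK signalling were divided 5 to 5, with a median of −0.04 and 0 past the threshold, and Tnfaip3, Nfkbia and Pik3ip1 had log2 differences of −0.15, −0.23 and 0.21.

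The osteoclast genes that RANK signalling switches on lay mostly above 0. Of 16 genes, 13 had a positive and 3 a negative log2 difference, and the median was 0.33, beside 0.04 for all tested genes, of which 57.2% lay above 0. Markers of other cells had higher medians, with 8 of 10 osteoblast markers above 0 (median 0.40), 6 of 7 tested cartilage markers (1.06) and 10 of 10 skeletal muscle markers (0.36). Their part in the difference of the osteoclast genes was not tested. None of the 16 passed the threshold over all genes (0% of all genes did). An unadjusted p under 0.05 was found for 3 that lay higher, beside 2.13% of all tested genes, and for 1 that lay lower, beside 3.23%. Oscar, a co-receptor of osteoclast formation, stood at 4.35, 2.47, 4.60 and 5.77 CPM in vehicle 1 to 4 and at 7.22, 7.27, 7.11 and 5.77 CPM in doxorubicin 1 to 4, with vehicle 4 just below doxorubicin 4. Dcstamp, which precursors need to fuse, stood at 5.58, 2.19, 5.38 and 5.17 CPM in vehicle 1 to 4 and at 7.13, 8.02, 7.67 and 5.95 CPM in doxorubicin 1 to 4. Vehicle 2, the mouse with the least RANK, also had the least of both. Calcr, the calcitonin receptor, ranged from 1.49 to 2.44 CPM in vehicle and from 2.27 to 4.09 in doxorubicin bones, and these ranges overlapped.

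Itgb3, the integrin chain of osteoclasts that platelets also carry, was the 1 gene of the 4 with the smallest p that lay lower. It ran from 288 to 324 CPM in vehicle and from 178 to 250 in doxorubicin bones, a log2 difference of −0.41 ± 0.14 (SE), in libraries whose megakaryocyte markers were lower too, and the part of those markers was not tested. The resorption enzymes Ctsk and Acp5 had log2 differences of 0.29 ± 0.28 and 0.41 ± 0.27 (SE) and are named for their role. Without vehicle 2 the list median was 0.14, and without doxorubicin 2 it was 0.22, while 13 of 16 genes lay above 0 in each of the 17 alternative fits. The genes of the list share cells and mice and are not separate observations.

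**Figure D5:**
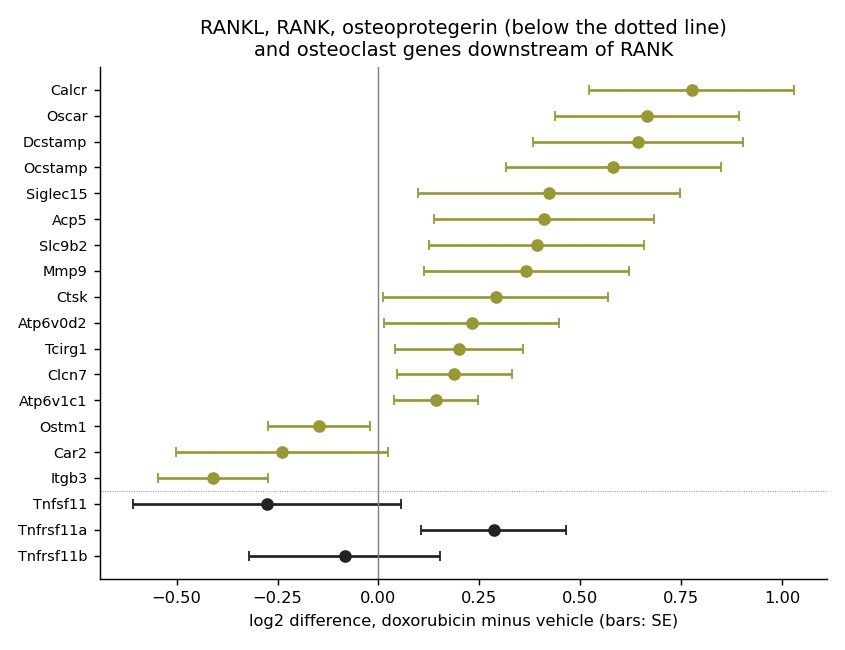
Log2 difference, doxorubicin minus vehicle, with its SE (x axis) for the 3 members, below the dotted line, and for 16 osteoclast genes downstream of RANK. Of the 16 genes 13 lie to the right of 0, as does Tnfrsf11a at 0.29, while Tnfsf11 and Tnfrsf11b lie to the left at −0.28 and −0.08.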

How the data were processed

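The authors deposited 1 table of whole-number counts per gene for the 8 libraries. They were treated here like the expected counts that RSEM estimates, since the submitters' processing notes name STAR 2.5.3a and RSEM 1.3.0. The same notes name the build GRCh38, although the identifiers are those of mouse genes. Annotation release, use of strand, use of the molecular identifiers in the adaptors and filters: not given in the sources used here. Per the labels' protocols, libraries were stranded, poly-A selected and amplified by PCR, so reads are not independent molecules.

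Each of the 8 columns carried the label of 1 sample, and 0 columns were left over. No library repeated another, since counts of the 28 pairs differed with a chi-square of 29.0 to 297 times its degrees of freedom. The low-count filter was filterByExpr (minimum count 10, minimum total 15; 17035 genes kept). Counts were scaled by TMM and tested with edgeR 4.0.16 (robust quasi-likelihood, two-sided, Benjamini-Hochberg over all genes, threshold 0.05) in R 4.3.3. SE and 95% intervals derive from the F statistic. DESeq2 1.42.0 and limma 3.58.1 (voom) were alternatives, as were other scaling and filters, a replicate block, covariates for marrow and muscle markers, and each library left out. The fit was tested on counts simulated from the means and dispersions of these data. Each gene was drawn separately, so variation that genes share between mice was not covered. The 39 correlations with lists and the refits of the RANK target list were added after the data were seen. The ratio and correlations used two-sided exact permutation tests over libraries (SciPy 1.17.1). Positions and lengths came from GENCODE M21 (GRCm38). The named genes were the members, up to 4 genes of smallest p in each pathway list and the 5 genes most like each member; 2 of these genes are not reported here. Members and lists were chosen with earlier results of these data known.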

Additional observations from a re-analysis of the deposited data

Results flagged for a closer look

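Of 70 groups of 4 mice looked at (3 members, their ratio and 31 named pathway genes, in 2 groups each), 7 held a mouse whose gap to the nearest of the others took most of the group's range, and about 1 in 20 groups does so by chance. The Tnfsf11 to Tnfrsf11b ratio of doxorubicin 3 was 0.358, beside 0.527 to 0.558 in the other 3 doxorubicin mice. It had 177 Tnfsf11 and 495 Tnfrsf11b counts. Doxorubicin 2 stood high for Csf1 at 68.5 CPM, with the next mouse at 45.5. Doxorubicin 1 had the lowest Itgb3 at 178 CPM (next 241), and doxorubicin 4 the lowest Oscar at 5.77 CPM (next 7.11). Among vehicle mice, vehicle 2 had the lowest Dcstamp at 2.19 CPM (next 5.17), vehicle 3 the highest Il1a at 12.4 CPM (next 8.43) and vehicle 4 the highest Vwf at 110 CPM (next 73.5).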

How the results depend on the processing

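The count of genes past the threshold, 0 in edgeR, was 1 with no filter on low counts and 29 in DESeq2, of which 0 belonged to the pathway lists. It was 0 in the other 15 alternatives. The 913 genes with an unadjusted p under 0.05 became 1784 without vehicle 4 and 621 without doxorubicin 4, the highest and lowest with 1 mouse omitted, and 1466 with the replicate block. Over the fits that each omit 1 mouse, Tnfsf11 ran from −0.53 to 0.0061, Tnfrsf11b from −0.24 to 0.10 and the ratio from −0.28 to 0.022 (without doxorubicin 3) on the log2 scale. The r of Tnfsf11 with Tnfrsf11b ran from 0.81 to 0.93. The members kept their direction and stayed short of the threshold in all other alternatives. The labels give the same replicate numbers to both groups but do not say that a number marks a shared litter or day. Deviations of same-numbered mice correlated at 0.29, −0.23, 0.40 and 0.07. Of the libraries, 3 of 4 vehicle and 2 of 4 doxorubicin ones correlated best with their own number. Whether the numbers mark pairs was not settled by this check, and the main fit took no pairs because the labels state none. With the replicate block the log2 difference was −0.24 for Tnfsf11, 0.31 for Tnfrsf11a and −0.10 for Tnfrsf11b, and the ratio had p = 0.75 in an exact sign-flip test. In edgeR's quasi-likelihood test the unadjusted p of Tnfsf11 was 0.131 with the block and 0.424 without it. It was 0.136 and 0.142 for Tnfrsf11a, and 0.489 and 0.733 for Tnfrsf11b. The replicate block changed no call. Depth enters through the 106 to 357 Tnfsf11 counts per library; whether more depth or more mice would change a call was not tested.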
